A study of Mus musculus with 12 samples.

Results

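Neurexins, neuroligins and the leucine-rich repeat transmembrane neuronal proteins (LRRTMs) are adhesion proteins that face each other across the synapse. The genes described here were chosen by name as members of these families, and they are Nrxn2, Nrxn3, Nlgn1, Nlgn2, Nlgn3, Lrrtm1, Lrrtm2 and Lrrtm3. These are 8 of the 12158 genes of the authors' expression table, and all 8 passed the filter on low values that left 12102 genes. RNA was measured in bulk microdissected mouse forebrain of the strain C57BL/6N, from animals with a germline Chd8 mutation on 1 copy of the gene (Chd8+/del5, labelled Het) and from WT littermates. The stages were e12.5 (8 libraries), e14.5 (9 libraries), e17.5 (10 libraries), P0, the day of birth (11 libraries), and adults labelled P56 (6 libraries), 44 libraries in all. No label ties a library of the table to a genotype, so every stage below mixes Het and WT animals, and the effect of the Chd8 mutation on these genes was not analysed here.

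Neurexins sit mainly on the presynaptic membrane, where they help to organize transmitter release. Neuroligins and LRRTMs are postsynaptic proteins that bind neurexins and compete for overlapping surfaces on them. Among the neuroligins, Nlgn1 is known mainly from excitatory synapses, Nlgn2 from inhibitory synapses, and Nlgn3 from both, while the LRRTMs are known mainly from excitatory synapses.

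Values are log2 RPKM (reads scaled to gene length and to library size), given as the lowest, the median and the highest library of a stage. A gene was called higher or lower between 2 stages when the ranges of their libraries did not overlap, and its difference is the later minus the earlier stage median on the log2 scale. There is no p-value, since the libraries of a stage are not replicates of 1 genotype. The 5 comparisons share libraries and are not independent of each other. Sequencing was paired-end with 100 bp reads at e12.5 and single-end with 50 bp reads at all other stages, so stage and read type cannot be told apart in any comparison with e12.5.

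The forebrain label was set beside its markers. All 12 forebrain markers were in the table, with a median summed RPKM of 227 in adults and between 514 and 616 at the earlier stages, while 2 of 10 midbrain and hindbrain markers were in it, with a median summed RPKM of at most 2.06 at any stage. Single libraries stood above that, up to 8.11 at e12.5, 12.1 at e17.5 and 14.3 at P0. Chd8 had stage medians between 3.72 in adults and 4.31 at e12.5, which does not check the genotype labels. In earlier results of these data, adult library 1 stood toward the P0 libraries, and the e17.5 values lay less surely on whole reads than those of the other stages.

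The promoters of the members with the smallest and the largest span of stage medians, e12.5 included, are shown here, for reference beside their levels. RefSeq's table (build GRCm38.p6) had start sites for 5 of the 8 members, 8 start sites in all, and each window runs from 250 bases before to 50 after a start site. Nlgn2 (chr11:69837735-69838034, minus strand) had the smallest span of stage medians and Lrrtm3 (chr10:64090206-64090505, minus strand) the largest. Nlgn1 (first listed start site, chr3:26331860-26332159, minus strand) and Lrrtm1 (chr6:77242227-77242526, plus strand) lay between them and are shown for comparison. Capitals mark the GC box, GGGCGG or on the other strand CCGCCC, which is known as a binding motif of Sp-family factors.
Nlgn2: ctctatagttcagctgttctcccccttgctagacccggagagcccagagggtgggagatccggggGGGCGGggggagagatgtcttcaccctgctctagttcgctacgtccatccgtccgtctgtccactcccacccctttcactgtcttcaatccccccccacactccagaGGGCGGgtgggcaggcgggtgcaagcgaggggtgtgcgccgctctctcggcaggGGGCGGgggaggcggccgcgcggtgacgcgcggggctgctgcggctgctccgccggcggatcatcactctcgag
Nlgn1: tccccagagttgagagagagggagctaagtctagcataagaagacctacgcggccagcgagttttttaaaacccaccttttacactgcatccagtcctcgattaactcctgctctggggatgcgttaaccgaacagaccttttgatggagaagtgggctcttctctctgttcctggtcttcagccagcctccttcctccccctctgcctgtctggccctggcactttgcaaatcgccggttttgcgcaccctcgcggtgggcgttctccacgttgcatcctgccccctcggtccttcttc
Lrrtm1: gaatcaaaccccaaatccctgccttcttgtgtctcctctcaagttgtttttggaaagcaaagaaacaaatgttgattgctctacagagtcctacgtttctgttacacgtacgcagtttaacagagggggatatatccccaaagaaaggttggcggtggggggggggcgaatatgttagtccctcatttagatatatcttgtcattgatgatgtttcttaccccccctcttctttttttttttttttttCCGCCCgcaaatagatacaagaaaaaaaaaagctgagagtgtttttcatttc
Lrrtm3: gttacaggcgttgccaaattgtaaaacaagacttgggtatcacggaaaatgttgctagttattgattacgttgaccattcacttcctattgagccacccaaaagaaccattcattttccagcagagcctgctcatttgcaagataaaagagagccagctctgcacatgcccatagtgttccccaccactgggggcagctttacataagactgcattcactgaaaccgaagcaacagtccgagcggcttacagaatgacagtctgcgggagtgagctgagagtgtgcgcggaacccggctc

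The Nlgn2 window held 3 GC boxes, 26 CG dinucleotides and 68.7% G and C. The Lrrtm1 window held 1 GC box, and the Nlgn1 and Lrrtm3 windows held 0. Of 32841 promoter windows of the same length, 35.7% held a GC box, and the medians were 7 CG dinucleotides and 52.7% G and C. The CG count was 14 for Nlgn1, 7 for Lrrtm1 and 10 for Lrrtm3, so the Nlgn2 window was the richest of the 4 shown, with fewer CG dinucleotides in 83.1% of all windows. These are descriptions of letters, and binding at these promoters was not analysed here.

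Over the whole course, every member had its lowest median at e12.5. The highest median lay in adults for 5 members (Nrxn3, Nlgn2, Lrrtm1, Lrrtm2 and Lrrtm3), at P0 for Nrxn2 and Nlgn1, and at e17.5 for Nlgn3. The span between the lowest and the highest stage median was 15.5-fold for Lrrtm3, 7.11-fold for Lrrtm2 and 4.28-fold for Lrrtm1. It was 5.27-fold for Nrxn2 and 5.05-fold for Nrxn3. Among the neuroligins it was 4.97-fold for Nlgn1, 2.06-fold for Nlgn3 and 1.86-fold for Nlgn2. The median span of the 8 members was 2.33 on the log2 scale, beside 1.37 over all 12102 genes.

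**Figure D1:**
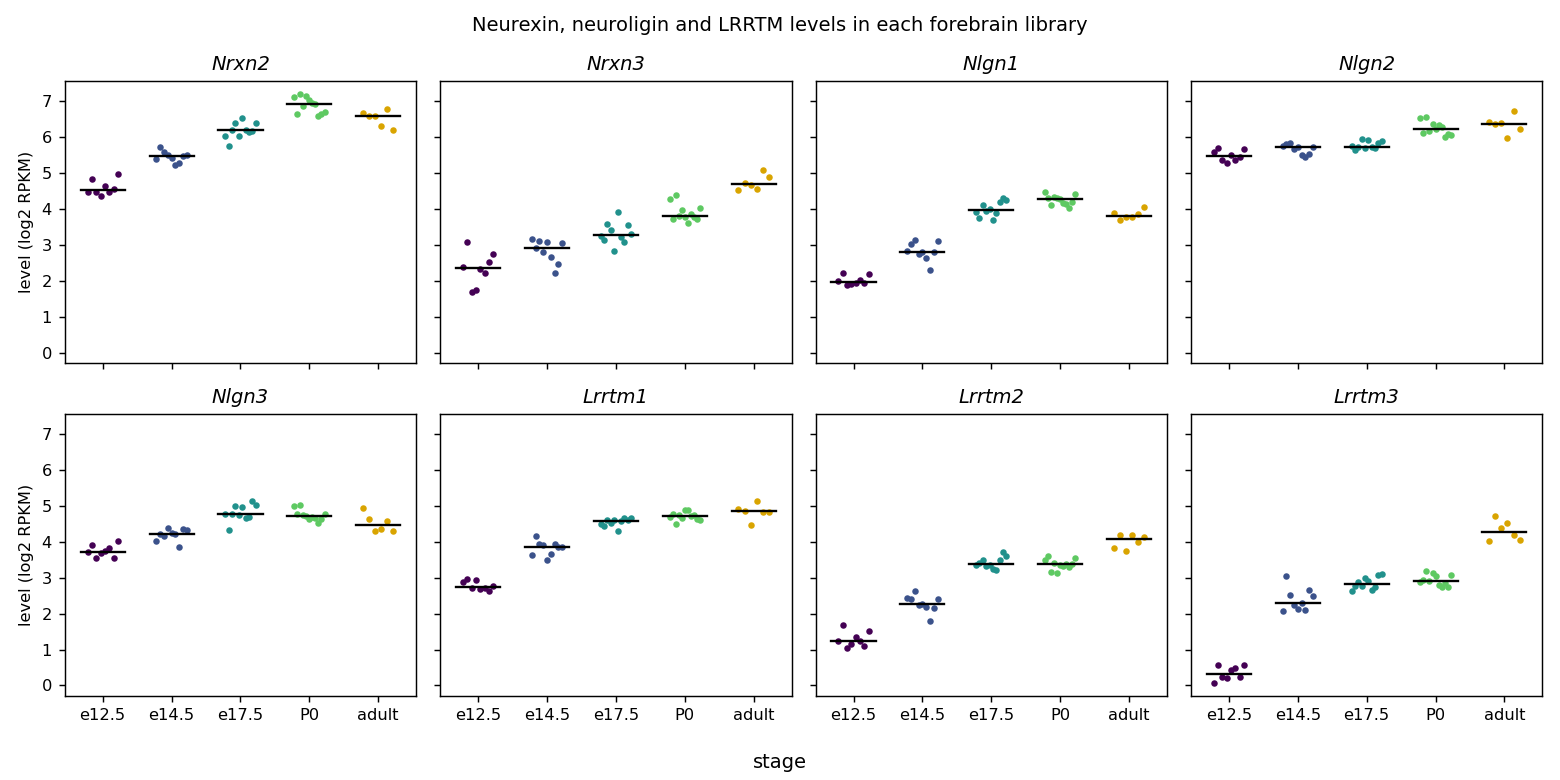
Level of each member (log2 RPKM, vertical axis) in every library, by stage (horizontal axis). Points are single libraries, Het and WT mixed, and bars are stage medians. Every panel has its lowest bar at e12.5. With e12.5 included, Nlgn2 moves least and Lrrtm3 moves most, while from e14.5 on Nlgn3 moves less than Nlgn2.

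Among the presynaptic members, Nrxn2 was the more abundant neurexin of the pair at every stage. Its libraries held 4.37 to 4.97 at e12.5 (median 4.52), 5.23 to 5.74 at e14.5 (median 5.47) and 5.76 to 6.54 at e17.5 (median 6.19). They held 6.60 to 7.21 at P0 (median 6.92) and 6.19 to 6.80 in adults (median 6.61). Each of the first 3 steps separated all libraries of the 2 stages, with higher levels in the later stage by 0.94, 0.72 and 0.73, while the adult and P0 ranges overlapped (difference −0.32). The P0 against e17.5 call was lost under quantile normalization (0.64). At P0 the median level of Nrxn2 stood above that of 96.4% of the genes of the table, and at e12.5 above that of 69.1%.

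Nrxn3 had a higher median at each later stage. Its libraries held 1.69 to 3.09 at e12.5 (median 2.37), 2.23 to 3.18 at e14.5 (median 2.91) and 2.84 to 3.93 at e17.5 (median 3.27). They held 3.61 to 4.39 at P0 (median 3.82) and 4.54 to 5.10 in adults (median 4.70). All neighbouring ranges before birth and at birth overlapped. Of the neighbouring steps, only that from P0 to adults separated every library (0.88). Adults were also higher than e14.5 in every library (1.79). Every P0 library (3.61 to 4.39) lay above every e14.5 library (2.23 to 3.18), so levels were also higher by birth. Without e17.5 library 6, P0 also lay above e17.5 in every library (0.58). The e12.5 libraries of Nrxn3 spread over 1.40 log2 units, the widest range of any member within a stage.

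The ratio of Nrxn3 to Nrxn2 within a library does not depend on any single factor per library. It set adults apart from e14.5, e17.5 and P0. Its log2 medians were −2.23 at e12.5, −2.56 at e14.5, −2.88 at e17.5, −2.92 at P0 and −1.82 in adults. Adult libraries lay between −2.12 and −1.29, all above the P0 libraries at −3.34 to −2.66, a difference of 1.09. They also lay above every e14.5 library (difference 0.73) and every e17.5 library (−3.21 to −2.61). They overlapped the e12.5 libraries (−2.80 to −1.74), where the read type differs. As a share of the RPKM of both genes, Nrxn3 made up 22.0% in adults (range 18.7% to 29.0%), against 11.7% at P0 (range 8.97% to 13.7%). The summed RPKM of both genes had medians of 123 in adults and 136 at P0.

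Among the postsynaptic partners, Nlgn1, the neuroligin of excitatory synapses, moved most of the 3 neuroligins. Its libraries held 1.89 to 2.23 at e12.5 (median 1.98), 2.29 to 3.15 at e14.5 (median 2.82) and 3.69 to 4.31 at e17.5 (median 3.98). They held 4.04 to 4.47 at P0 (median 4.30) and 3.71 to 4.06 in adults (median 3.82). It was higher at e14.5 than at e12.5 (0.84), higher at e17.5 than at e14.5 (1.16), and higher in adults than at e14.5 (1.001). The adult and P0 ranges met in a narrow overlap: the difference was −0.47, and 1.52% of the pairs of an adult and a P0 library had the adult above. This became a call of lower in adults with median centring (−0.55), with quantile normalization (−0.53), without P0 library 9 (−0.48) and without adult library 6 (−0.51).

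Nlgn2, the neuroligin of inhibitory synapses, was the most abundant neuroligin throughout. With e12.5 included, Nlgn2 had the smallest span of stage medians of the members. Its libraries held 5.28 to 5.72 at e12.5 (median 5.49), 5.46 to 5.85 at e14.5 (median 5.72) and 5.66 to 5.96 at e17.5 (median 5.75). They held 6.01 to 6.57 at P0 (median 6.24) and 5.99 to 6.73 in adults (median 6.38). The only neighbouring stages that its libraries separated were P0 and e17.5 (0.50), and adults were higher than e14.5 by 0.66. Both of these calls were lost under quantile normalization, where the differences were 0.37 for P0 against e17.5 and 0.38 for adults against e14.5. From e14.5 on, Nlgn3 had the smaller span, with medians from 4.22 to 4.77, against 5.72 to 6.38 for Nlgn2. The place of Nlgn2 as the member with the smallest span thus rests on e12.5, where the read type differs.

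Nlgn3 had no call in any of the 5 comparisons. Its libraries held 3.54 to 4.03 at e12.5 (median 3.72), 3.86 to 4.39 at e14.5 (median 4.22) and 4.34 to 5.12 at e17.5 (median 4.77). They held 4.53 to 5.02 at P0 (median 4.71) and 4.31 to 4.95 in adults (median 4.46). Outside the 5 comparisons, every P0 library lay above every e14.5 library. All libraries of e17.5, P0 and adults lay above every e12.5 library, where the read type differs. Levels were thus higher by birth. The overlaps were narrow early on: 97.2% of library pairs had e14.5 above e12.5 (difference 0.49), and 97.8% had e17.5 above e14.5 (difference 0.55). Without e14.5 library 7 the first of these became a call of higher (0.51), and without e17.5 library 2 the second did (0.56). Adult library 1, at 4.95, held the highest adult value and stood outside the range of the other 5 (4.31 to 4.63).

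The ratio of Nlgn1 to Nlgn2 within a library changed the most of the neuroligin ratios. Its log2 medians were −3.49 at e12.5, −2.85 at e14.5, −1.78 at e17.5, −1.97 at P0 and −2.58 in adults. Every e14.5 library lay above every e12.5 library (0.64), and every e17.5 library above every e14.5 library (1.07). In adults the ratio lay between −2.88 and −2.18, against −2.45 to −1.64 at P0, so the ranges overlapped (difference −0.61). Without P0 library 3 they separated, with adults lower (−0.62). Adults overlapped e14.5 (0.27), and were higher in every library under quantile normalization (0.44). As a share of the RPKM of the 3 neuroligins, Nlgn2 took 72.8% at e12.5, 67.2% at e14.5, 55.5% at e17.5, 63.0% at P0 and 68.0% in adults, all medians. The share of Nlgn1 was 6.48% at e12.5, 9.17% at e14.5, 16.4% at e17.5, 15.8% at P0 and 11.5% in adults.

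**Figure D2:**
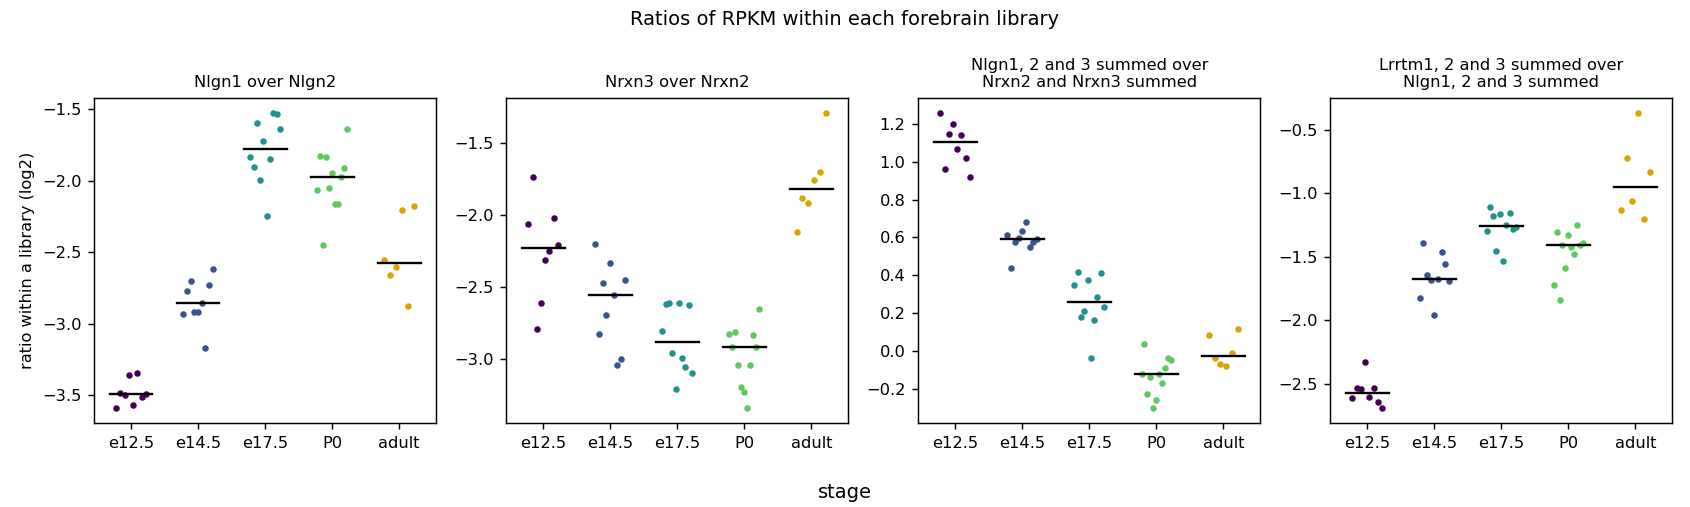
Log2 ratios of RPKM within each library (vertical axes) by stage (horizontal axis), with single libraries as points and stage medians as bars. The ratio of Nlgn1 to Nlgn2 peaks at e17.5 (median −1.78), the ratio of Nrxn3 to Nrxn2 is highest in adults (−1.82), neuroligins over neurexins is lowest at P0 (−0.12), and LRRTMs over neuroligins is highest in adults (−0.95).

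Lrrtm1 was the most abundant LRRTM at every stage, and both of its separated steps between neighbouring stages came before birth. Its libraries held 2.63 to 2.96 at e12.5 (median 2.75), 3.50 to 4.17 at e14.5 (median 3.85) and 4.29 to 4.68 at e17.5 (median 4.59). They held 4.48 to 4.88 at P0 (median 4.72) and 4.46 to 5.13 in adults (median 4.84). It was higher at e14.5 than at e12.5 (1.10) and higher at e17.5 than at e14.5 (0.74), and later neighbouring stages overlapped. Adults were higher than e14.5 by 0.995.

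Lrrtm2 moved in 3 separated steps with a pause around birth. Its libraries held 1.05 to 1.68 at e12.5 (median 1.24), 1.78 to 2.62 at e14.5 (median 2.27) and 3.21 to 3.72 at e17.5 (median 3.38). They held 3.14 to 3.59 at P0 (median 3.37) and 3.73 to 4.18 in adults (median 4.07). The steps were 1.03 for e14.5 against e12.5, 1.11 for e17.5 against e14.5 and 0.69 for adults against P0. The P0 and e17.5 medians differed by −0.01 with overlapping ranges, and the sign of that difference turned under several alternatives. Adults were higher than e14.5 by 1.80.

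Lrrtm3 was the lowest member at e12.5 and had the largest early and late steps. Its libraries held 0.07 to 0.58 at e12.5 (median 0.33), 2.07 to 3.05 at e14.5 (median 2.29) and 2.63 to 3.11 at e17.5 (median 2.82). They held 2.73 to 3.19 at P0 (median 2.91) and 4.02 to 4.71 in adults (median 4.28). The lowest e14.5 library stood 1.49 above the highest e12.5 library, and the lowest adult library stood 0.83 above the highest P0 library. The differences of medians were 1.95 for e14.5 against e12.5, 1.37 for adults against P0 and 1.998 for adults against e14.5. Levels between e14.5 and P0 overlapped from stage to stage.

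The makeup of the LRRTM group differed between adults and earlier stages. Of the RPKM of the 3 genes, Lrrtm3 held 12.1% at e12.5, 21.4% at e14.5, 17.3% at e17.5, 16.7% at P0 and 29.6% in adults, all medians. Lrrtm1 held 64.4%, 57.0%, 56.9%, 59.0% and 45.5% at the same stages. The log2 ratio of Lrrtm1 to Lrrtm2 was lower in adults (0.68 to 1.08) than at e14.5 (1.18 to 2.14), by −0.69. Adults overlapped P0 in this ratio (difference −0.54), and lay below it in every library without P0 library 11 (−0.55) or without adult library 1 (−0.60). The ratio of Lrrtm3 to Lrrtm2 was higher at e14.5 than at e12.5 in every library (1.03). At e17.5 it overlapped e14.5 (−0.70), and was lower in every library without e14.5 library 1 (−0.70). In adults it overlapped P0 (0.76), and was higher in every library without adult library 6 (0.83).

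Sums over the members set the families against each other. The summed RPKM of the 3 neuroligins over that of the 2 neurexins had log2 medians of 1.11 at e12.5, 0.59 at e14.5, 0.26 at e17.5, −0.12 at P0 and −0.02 in adults. It was lower at e14.5 than at e12.5 (−0.51), lower at e17.5 than at e14.5 (−0.33) and lower in adults than at e14.5 (−0.62). P0 overlapped e17.5 in it (−0.38), and lay below in every library without e17.5 library 6 (−0.41). The summed RPKM of the 3 LRRTMs over that of the neuroligins had medians of −2.57, −1.68, −1.26, −1.41 and −0.95 from e12.5 to adults. It was higher at e14.5 than at e12.5 (0.90), higher in adults than at P0 (0.46) and higher in adults than at e14.5 (0.73). These sums cover the members analysed here and not whole families.

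Each step was then read against all genes. For e14.5 against e12.5, 5 of 8 members were higher and 0 lower (median difference 0.89), beside 23.1% of all genes higher and 22.3% lower (median 0.03). For e17.5 against e14.5, 4 of 8 were higher and 0 lower (median 0.64), beside 13.1% higher and 12.1% lower (median −0.03). For P0 against e17.5, 2 of 8 were higher and 0 lower (median 0.23), beside 4.89% higher and 6.28% lower. That count of members was 0 under quantile normalization and 0 where medians also had to lie 1 log2 unit apart. For adults against P0, 3 of 8 were higher and 0 lower (median 0.13), beside 29.3% higher and 25.2% lower (median −0.01). That share of members lies near the background, and the 3 members called were Nrxn3, Lrrtm2 and Lrrtm3. For adults against e14.5, 7 of 8 were higher and 0 lower (median 1.07), all but Nlgn3, beside 30.8% higher and 32.4% lower (median −0.10). The 8 genes were measured in the same libraries and are not independent of each other.

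**Figure D3:**
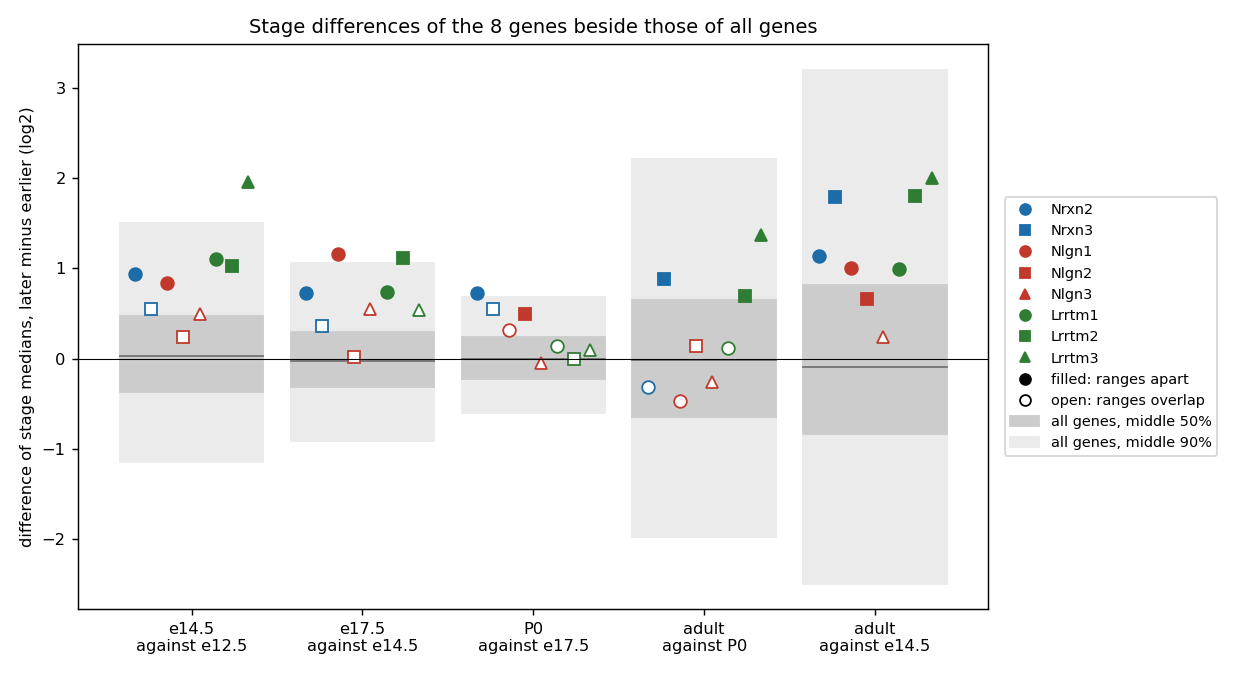
Difference of stage medians (log2, later minus earlier, vertical axis) of each member in the 5 comparisons (horizontal axis). Filled symbols have ranges apart, open symbols overlap, and grey bands span the middle of all 12102 genes. All 8 members lie above the all-gene median in the 2 prenatal comparisons, while those for adults against P0 lie on both sides of 0, from −0.47 for Nlgn1 to 1.37 for Lrrtm3.

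Cell makeup moved with the same stages, and in bulk tissue fewer cells of a type and less RNA per cell cannot be told apart. The summed RPKM of 11 neuron markers had a median of 1533 at e12.5 (1392 to 1922), 2303 at e14.5 (2067 to 2698), 3274 at e17.5 (2800 to 3651), 3954 at P0 (3725 to 4261) and 4315 in adults (3822 to 4787). Its members did not all follow the sum. In adults against P0, 6 were higher and 5 lower, beside 29.3% and 25.2% of all genes. In adults against e14.5, 6 were higher and 3 lower, or 6 and 4 without adult library 1, beside 30.8% and 32.4%. Snap25, 1 of the 11, had a median level of 153 RPKM at P0 and 2180 in adults. That change is larger than the change of the sum, so the higher adult sum rests on this marker. That of 11 markers of radial glia and dividing progenitors was 1885 at e12.5, 1564 at e14.5, 1136 at e17.5, 930 at P0 and 104 in adults (70.4 to 463). Of these 11, 11 were lower in adults than at e14.5, beside 32.4% of all genes. Astrocyte markers summed to a median of 2578 in adults (1630 to 3322), against 751 at P0 (622 to 1221), and oligodendrocyte lineage markers to 1507 in adults (934 to 2200), against 137 at P0 (105 to 154). Of 8 microglia markers described, 8 were higher in adults than at P0, beside 29.3% of all genes. The part of these cell types in the members' levels was not tested.

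All 3 LRRTM genes lie inside genes for alpha-catenins, which link cadherins to actin, by the RefSeq annotation. Lrrtm1 lies within Ctnna2, Lrrtm2 within Ctnna1 and Lrrtm3 within Ctnna3, and the last is not among the genes analysed here. The libraries were stranded, but whether the counting used strand is not given in the sources used here. Without strand, reads from sequence counted for both a surrounding gene and the gene inside it could be assigned to either. The overlap here is of whole gene spans, and exons were not compared. Ctnna2 was lower in adults (5.64 to 5.92, median 5.68) than at e14.5 (6.21 to 6.44, median 6.30) by −0.61, while Lrrtm1 was higher by 0.995. Ctnna1 was lower at e14.5 (5.09 to 5.64, median 5.49) than at e12.5 (6.26 to 6.49, median 6.41) by −0.92, while Lrrtm2 was higher by 1.03. For e14.5 against e12.5, Ctnna2 and Lrrtm1 were both higher, by 0.84 and 1.10. Nrxn2, Nrxn3 and Nlgn1 overlap noncoding RNAs or a pseudogene for which no values were used here.

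**Figure D4:**
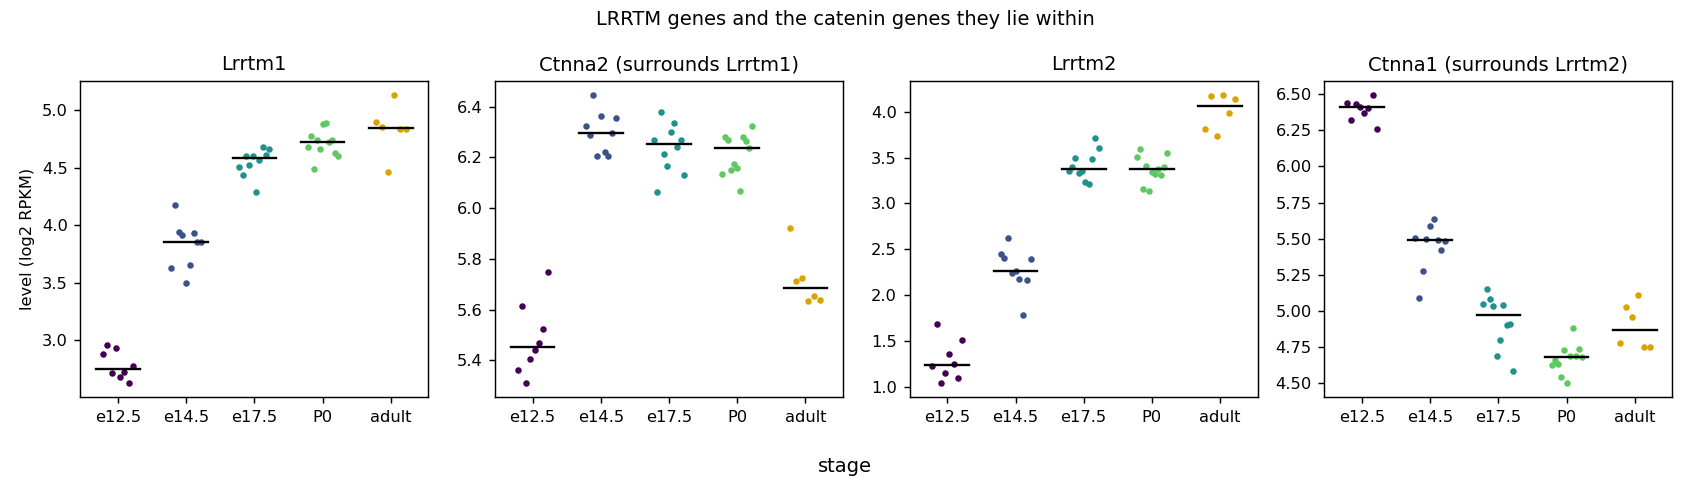
Levels (log2 RPKM, vertical axes with scales of their own) of Lrrtm1, its surrounding gene Ctnna2, Lrrtm2 and its surrounding gene Ctnna1 by stage (horizontal axis), single libraries as points and medians as bars. Lrrtm2 is lowest at e12.5 (median 1.24), where Ctnna1 is highest (6.41), and Ctnna2 is lower in adults (5.68) than at P0 (6.24).

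Library-to-library variation within a stage was followed after the stage median was taken from every value. Over 44 libraries, the deviations of Nrxn2 and Nlgn2 had a Pearson r of 0.81 and a Spearman rho of 0.81, and r was 0.81 without the 2 libraries farthest from the median of Nlgn2. The r was 0.83 within e12.5, 0.75 within e14.5, 0.86 within e17.5, 0.93 within P0 and 0.84 within adults. Of 12101 other genes, 14 had a higher r with Nrxn2. The deviations of Nlgn1 and Lrrtm2 had an r of 0.72 and a rho of 0.65, and r was 0.64 without the 2 farthest libraries. Here r was 0.92, 0.93 and 0.86 within the embryonic stages, 0.52 within P0 and 0.03 within adults. Of 12101 other genes, 6 had a higher r with Nlgn1. Both pairs were singled out after the r of all 28 member pairs had been seen, which ran from −0.25 for Nrxn3 and Lrrtm1 to 0.81, with a median of 0.33 and 6 pairs above 0.5. The points share library preparation, depth and genotype mix, and no p is given.

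**Figure D5:**
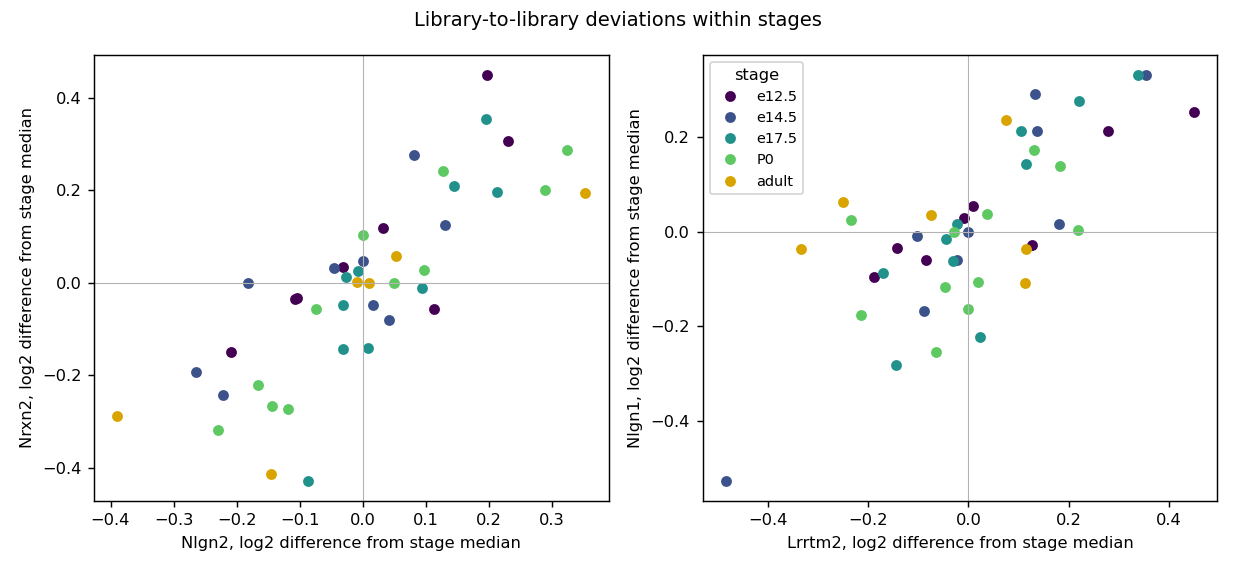
Deviation of each library from its stage median (log2), Nrxn2 against Nlgn2 on the left and Nlgn1 against Lrrtm2 on the right, coloured by stage. Points of every stage follow the diagonal on the left (r 0.75 to 0.93 within stages), while on the right the adult points do not (r 0.03).

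The e17.5 libraries carry 2 series of names, 5 libraries each. Of the 8 members, 0 had ranges apart between the 2 series, and of all 12102 genes 1 did. Every member still had its higher median in the series whose names end in lower numbers. The differences ran from 0.05 for Nrxn3 to 0.23 for Nlgn1. Overlapping ranges thus do not show that the series are alike, and an effect of the series was not tested. What the series stand for is not given in the labels.

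The genes with the course most like each member were ranked by Pearson r over the 44 libraries, among 11799 genes with a mean above 0 log2 RPKM. The libraries fall into 5 stages, so r follows mainly the stage course, and it is a description. Nrxn2 was most like Capn5, a calpain protease (0.98), the G protein gene Gnaz (0.98) and Apba1, an adaptor that binds neurexins (0.98). Nrxn3 was most like the transcription coactivator gene Ppargc1a (0.97), the adhesion gene Nrcam (0.97) and Astn1, known from neuron migration (0.97). For Nlgn1 the nearest were the actin-binding gene Ablim1, the RNA-binding gene Stau2 and the kinesin-associated gene Kifap3 (each 0.98). Nlgn2 had lower values, with the dynactin gene Dctn1 (0.94), the myosin gene Myo18a (0.94) and the golgin gene Golga2 (0.94). Nlgn3 had the lowest, with Gnaq, Zbtb38 and Nyap2 (each 0.93).

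Lrrtm1 was most like Opcml, a surface adhesion gene, Gnal, a G protein gene, and Elmod1 (each 0.98). Lrrtm2 was most like Dbpht2, the sialyltransferase gene St8sia3 and Agtpbp1, which trims tubulin tails (each 0.98). Lrrtm3 was most like 2900011O08Rik (0.99), Pcp4, a calmodulin-binding gene (0.99), and the netrin receptor gene Unc5a (0.98).

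The other genes of the pathway were taken from lists, starting with extracellular partners of neurexins other than the members. For adults against e14.5, 13 of 19 described genes were higher and 2 lower (median difference 1.53), beside 30.8% of all genes higher and 32.4% lower. The largest differences were those of C1ql3, a secreted complement-like protein (4.88 in adults, 0.75 at e14.5), the carbonic-anhydrase-related genes Car10 (5.91 in adults, 2.66 at e14.5) and Car11 (7.12 in adults, 4.26 at e14.5), and the calsyntenin gene Clstn3 (7.37 in adults, 4.74 at e14.5). For adults against P0, 7 were higher and 5 lower, beside 29.3% of all genes higher and 25.2% lower, which is near the background. Cbln1, the cerebellin that links neurexins to delta receptors, was lower at 2.78 in adults, against 5.47 at P0. For e14.5 against e12.5, 12 were higher and 1 lower, beside 23.1% and 22.3% of all genes, with the neurexophilin gene Nxph3 at 3.89 at e14.5, against 0.64 at e12.5.

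Inside the presynaptic terminal, neurexins bind scaffold and release proteins. Of 10 such cytoplasmic partners, 8 were higher and 1 lower in adults against e14.5 (median 1.64), or 8 and 2 without adult library 1, beside 30.8% of all genes higher and 32.4% lower. Lin7b, a scaffold subunit, was at 6.16 in adults, against 1.77 at e14.5. For adults against P0, 6 were higher and 2 lower, beside 29.3% and 25.2% of all genes, and Lin7c was lower at 4.43 in adults, against 6.49 at P0. Of the 10, 0 were lower in the 3 comparisons of neighbouring stages up to P0, beside 22.3%, 12.1% and 6.28% of all genes lower. For 10 genes, a count of 0 lies near the last 2 of these shares.

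On the postsynaptic side, neuroligins and LRRTMs bind scaffold proteins of excitatory and inhibitory synapses. Of 18 such genes, 17 were higher and 0 lower in adults against e14.5 (median 1.92), beside 30.8% of all genes higher and 32.4% lower. They included the PSD-95-associated genes Dlgap1 (6.43 in adults, 2.49 at e14.5), Dlgap2 (4.14 in adults, 0.54 at e14.5) and Dlgap3 (7.42 in adults, 4.14 at e14.5), and the scaffold gene Shank3 (5.52 in adults, 2.54 at e14.5). For e17.5 against e14.5, 14 were higher and 0 lower, beside 13.1% and 12.1% of all genes, with Dlg2 at 5.26 at e17.5, against 3.55 at e14.5. For P0 against e17.5, 4 were higher and 0 lower, beside 4.89% and 6.28% of all genes, among them Gphn, the gephyrin scaffold of inhibitory synapses (5.06 at P0, 4.50 at e17.5), and Dlg4, which encodes PSD-95 (7.69 at P0, 7.09 at e17.5).

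Extracellular and enzymatic modulators of the neuroligin and neurexin bridge were called in both directions. Of 11, 4 were higher and 5 lower in adults against e14.5 (median −0.15), beside 30.8% of all genes higher and 32.4% lower, so these counts lie near the background. For adults against P0, 2 were higher and 6 lower (median −0.50), beside 29.3% and 25.2% of all genes. For e14.5 against e12.5, 5 were higher and 2 lower, beside 23.1% and 22.3% of all genes. The matricellular gene Sparcl1 was at 9.74 in adults, against 5.45 at e14.5, and the secreted gene Lgi1 at 5.05 in adults, against 1.38 at e14.5. Mmp9, a protease known to cleave Nlgn1, was lower at −0.60 in adults, against 2.93 at e14.5, and the thrombospondin gene Thbs1 was lower at −1.12 in adults, against 2.29 at e14.5.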

How the data were processed

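RNA levels were taken from the authors' deposited table of 12158 genes and 44 libraries, whose values are log2 RPKM. RPKM is per the labels, and the log base was read from the values. Per the submitters' processing notes, STAR 2.4.2a and the genome build mm9 were used, while the sources used here give no read counter, annotation, depth per library or scaling between libraries. Per the labels' protocols, polyA RNA was made into stranded libraries (TruSeq). Folds of low genes may be understated, because the values hold an unstated prior count.

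Columns give a stage and digit codes that no label explains, so no library was given a genotype, and no column is tied to a single animal, so ranges may cover technical spread alone. The planned tests were therefore range comparisons with no p. A gene was left out when its mean did not exceed −2 log2 RPKM (56 genes). The range comparison was tested on simulated data. The text names all members, Chd8, the 3 genes most like each member and, in each list, up to 4 called genes with the largest differences. The 2 surrounding catenin genes were added to these, and a few genes named by this rule are left out of the text. The members and lists were chosen with earlier results of these data known. Alternatives were median centring, quantile normalization, a margin of 1 log2 unit, trimmed ranges and leaving out each library. The peak list of the series was not used here. Python 3.11.15, numpy 2.4.6, pandas 2.3.3 and matplotlib 3.10.9 were used.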

Additional observations from a re-analysis of the deposited data

Results flagged for a closer look

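Of 64 sets of libraries searched for an outlying library (the 8 members and the 8 ratios in the 4 stages with at most 10 libraries), 1 had one, while chance gives about 3.2. In e12.5 library 4, the summed LRRTMs over the summed neuroligins stood at −2.33 on the log2 scale, apart from the other 7 e12.5 libraries at −2.69 to −2.53. It stayed below every e14.5 library, the lowest of which was at −1.96.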

How the results depend on the processing

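Of the 40 differences of a member between stages, 782 recomputed values kept their side of the call, 7 gained a call and 3 lost one, and 0 called differences changed sign. The sign turned in 12 of the 782, all of differences with overlapping ranges: 11 were of Lrrtm2 for P0 against e17.5 (0.0029 to 0.016, against −0.0065 as reported), and 1 was of Nlgn2 for adults against P0 (−0.03 under quantile normalization, against 0.14). Where medians also had to lie 1 log2 unit apart, the members called higher were 3 for e14.5 against e12.5, 2 for e17.5 against e14.5, 0 for P0 against e17.5, 1 for adults against P0 and 5 for adults against e14.5. Quantile normalization left 0 higher for P0 against e17.5. For adults against P0, 1 member (Nlgn1) was lower with median centring, with quantile normalization and with ranges trimmed of their lowest and highest library, and 0 to 1 when a library was left out. Leaving out each library in turn gave 5 to 6, 4 to 5, 2 to 3, 3 and 7 members higher in the 5 comparisons in the same order. Both rescalings turned the balance of all genes for adults against P0, to 26.1% higher and 29.5% lower with median centring and 25.6% and 29.7% with quantile normalization. No paired analysis was possible because the columns carry no replicate numbers that the labels explain and no genotype. Depth per library is unknown, so no interval for counting error is given.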

Other observations

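Genes for RNA-binding proteins that regulate neurexin splicing were called in both directions. Of 12 genes, 4 were higher and 7 lower in adults against e14.5 (median difference −0.83), beside 30.8% of all genes higher and 32.4% lower. Rbfox1 was at 6.36 in adults, against 4.11 at e14.5, and Rbfox3, a marker of mature neurons, at 6.56 in adults, against 3.95 at e14.5. The polypyrimidine-tract binding genes were lower, with Ptbp1 at 3.28 in adults, against 5.43 at e14.5, and Ptbp2 at 4.94 in adults, against 6.82 at e14.5. For adults against P0, 1 was higher and 7 lower, beside 29.3% and 25.2% of all genes, among them Khdrbs2 (2.28 in adults, 4.21 at P0) and Khdrbs1 (4.58 in adults, 6.06 at P0), both of the family known to set inclusion of an alternative neurexin exon. Gene-level values hold no isoforms, so neurexin splicing itself was not analysed here.

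Other synapse-organizing adhesion genes were also called in both directions. Of 42 described, 21 were higher and 6 lower for e14.5 against e12.5, beside 23.1% and 22.3% of all genes. For adults against e14.5, 19 were higher and 9 lower (median 0.47), beside 30.8% and 32.4%. For adults against P0, 9 were higher and 11 lower, or 10 and 13 without adult library 1, beside 29.3% and 25.2% of all genes, so the counts lie near the background. Cntnap1, known from the axon beside the node of Ranvier, was at 5.96 in adults, against 0.73 at P0, and the immunoglobulin superfamily gene Igsf9 was lower at 1.03 in adults, against 4.04 at P0.

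Adult library 1 stood outside the range of the other 5 adult libraries for 3 of the 8 members: Nrxn3 (4.54, others 4.56 to 5.10), Nlgn3 (4.95, others 4.31 to 4.63) and Lrrtm3 (4.02, others 4.05 to 4.71). In each case it lay on the side of the P0 median. For every gene some library is the lowest and some the highest. The share over all genes was not computed, so this count does not set adult library 1 apart from the others. No call of a member in adults was lost without it.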
